A study of Mus musculus with 48 samples.

Results

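Wild-type pre-B cells were compared with c-Kit-high pro-B cells of the genotype Ikzf1(fl/+) Cd79a(Cre/+), both from C57BL/6 mice, by sequencing of polyadenylated RNA. The comparison takes 2 pre-B libraries and 2 c-Kit-high pro-B libraries, which are 4 of the 30 RNA libraries and of the 48 samples in the series. It covers 10986 of the 21025 deposited gene models, those that reached 1 RPKM in 2 or more of the 4 libraries. RPKM is the number of reads per kilobase of gene model and per M (mega) mapped reads. The series asks what the transcription factor Ikaros, encoded by Ikzf1, does at successive early B-cell stages, and its c-Kit-high pro-B controls and wild-type pre-B cells allow a comparison of neighbouring stages. In the pro-B mice a single Ikzf1 allele is floxed, and a single Cd79a allele carries Cre recombinase, so Cre is made where Cd79a is active, in B-lineage cells. The pre-B mice carry neither change. Some pro-B chromatin samples of the series are labelled Ikzf1(∆/+), with the allele deleted. The floxed allele may thus be deleted in the c-Kit-high pro-B cells too, which was not tested. Stage, genotype and sort differ together between the groups and cannot be told apart. The labels call the pre-B cells total, which does not separate dividing large pre-B from resting small pre-B cells.

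Pro-B cells rearrange the immunoglobulin heavy-chain locus with the Rag1 and Rag2 recombinase, and they depend on signals from c-Kit and from the interleukin-7 receptor. A heavy chain that is made in frame pairs with the surrogate light chain, built from Vpreb and Igll1 proteins, and with Cd79a and Cd79b forms the pre-B cell receptor. Signals of that receptor drive a short burst of division, after which the surrogate light chain is shut off, cells leave the cell cycle and the light-chain loci are rearranged.

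The surface antigens that define these stages went with the labels. Il2ra, the interleukin-2 receptor alpha chain used to sort pre-B cells, was at 93.8 and 90.9 RPKM in pre-B libraries, against 1.35 and 0.585 RPKM in c-Kit-high pro-B libraries. Cd2, an adhesion receptor that appears with the pre-B stage, was at 249 and 244 RPKM in pre-B libraries, against 2.06 and 0.753 RPKM in c-Kit-high pro-B libraries. Kit, the antigen by which the pro-B cells are named, was at 3 and 2.67 RPKM in pre-B libraries, against 34.2 and 39.1 RPKM in c-Kit-high pro-B libraries. Both libraries of each group lay far apart from both of the other group for all 3 genes. On the log2(RPKM + 1) scale used for every difference below, Il2ra was higher in pre-B cells by 5.60 (SE 0.22, limma adjusted p = 2.6e-09) and Cd2 by 6.74 (SE 0.30, adjusted p = 7.6e-09), and Kit was lower, at -3.30 (SE 0.19, adjusted p = 5.2e-08).

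**Figure D1:**
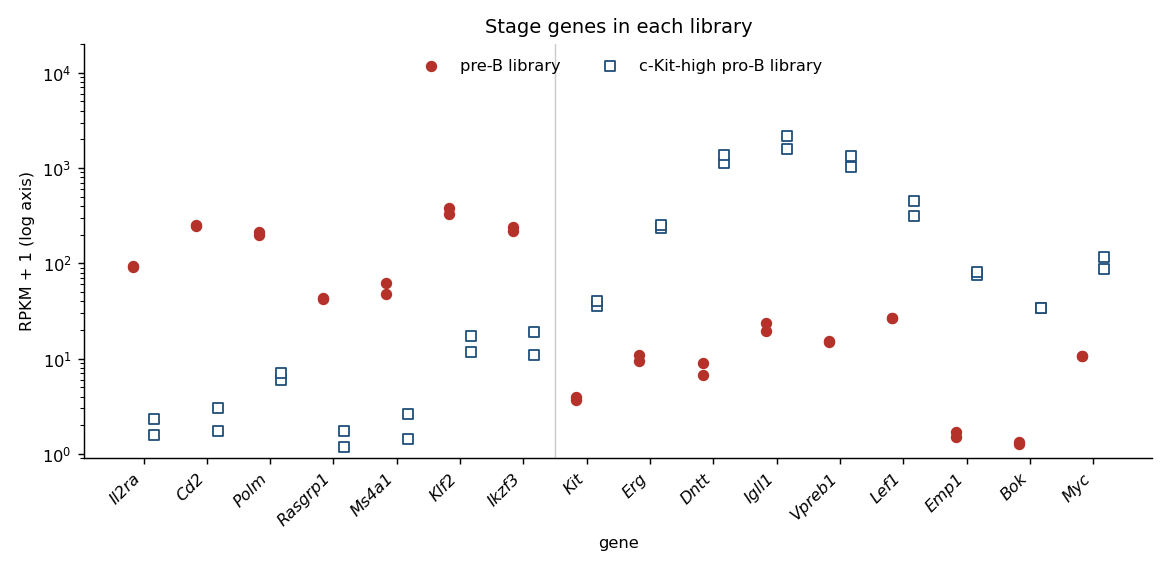
RPKM of 16 stage genes, on a log axis after adding 1, in each pre-B library (filled circles, left of each pair) and each c-Kit-high pro-B library (open squares, right). Il2ra, Cd2, Polm, Rasgrp1, Ms4a1, Klf2 and Ikzf3 are high in both pre-B libraries, whereas Kit, Erg, Dntt, Igll1, Vpreb1, Lef1, Emp1, Bok and Myc are high in both c-Kit-high pro-B libraries, and no gene overlaps between the groups.

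Granulocyte RNA was present in the pre-B libraries. The 41 matched genes of a list of 43 neutrophil and granulocyte-precursor genes took 2.57% and 2.61% of all RPKM in pre-B libraries, against 0.259% and 0.081% in c-Kit-high pro-B libraries. Their summed level was 9632 and 10231 RPKM in pre-B libraries, against 973 and 319 RPKM in c-Kit-high pro-B libraries. S100a9, a calcium-binding protein abundant in neutrophils, was at 2509.5 and 2569 RPKM in pre-B libraries, against 205 and 29.1 RPKM in c-Kit-high pro-B libraries. Every library thus held some, and c-Kit-high pro-B library 2, the one with the lowest summed level, listed 11 of the list's genes at 0, among them Cebpe, Csf3r and Cxcr2. Of the 38 tested genes of the list, 36 (the share over all tested genes was 20.8%) were higher in pre-B libraries and none was lower, with a median difference of 4.10. S100a9 was not called in the fit of the 4 libraries alone (adjusted p = 0.0893). Erythroid genes were also higher in 21 of 25 tested and lower in 1, with summed levels of 695 and 758 RPKM in pre-B libraries, against 374 and 469 RPKM in c-Kit-high pro-B libraries. The defining erythroid genes Gata1 and Cldn13 were at 0 in c-Kit-high pro-B library 2, the shallowest library. The haemoglobin gene Hbb-b2 was at 85.2 and 119 RPKM in pre-B libraries, against 2.89 and 29.4 RPKM in c-Kit-high pro-B libraries. Of the 25 tested erythroid genes, 11 were higher in c-Kit-high pro-B library 1 than in library 2, near the share of 47.1% over all tested genes. In bulk samples like these, fewer cells of a type and less RNA per cell cannot be told apart. What this RNA adds to the genes described below was not tested. With the listed genes of other cell types taken out and each library brought back to its own sum, 5658 of 10866 genes were called, 2344 higher and 3314 lower.

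The 4 libraries differed in depth. Steps of a single read in the RPKM values gave 15.6 and 8.77 M reads for the pre-B libraries, against 8.86 and 2.31 M reads for the c-Kit-high pro-B libraries. In both pre-B libraries and in c-Kit-high pro-B library 1 the values had 2 step sizes, so their depths are averages of both and, like the levels of 3 reads taken from them, only approximate. On a gene model of 1 kb, 3 reads correspond to 0.19 and 0.34 RPKM in pre-B libraries, against 0.34 and 1.3 RPKM in c-Kit-high pro-B libraries, so levels near 1 RPKM rest on very few reads in c-Kit-high pro-B library 2. Across genes, which are not independent replicates, Pearson's r of log2 values was 0.990 between the pre-B libraries and 0.966 between the c-Kit-high pro-B libraries, against 0.832 to 0.834 across the groups.

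Of the 10986 genes, 5762 (52.4%) were called at a limma adjusted p under 0.05, with 2289 (20.8%) higher and 3473 (31.6%) lower in pre-B cells. A share near these is the background against which every count below is read. The median difference over all tested genes was -0.11. Median-ratio scaling moved it up by 0.17 and gave 3090 higher and 2693 lower genes, 53.4% higher of all calls against 39.7%, and quantile normalization gave 3007 higher and 2951 lower. The direction of small differences therefore depends on the scaling.

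**Figure D2:**
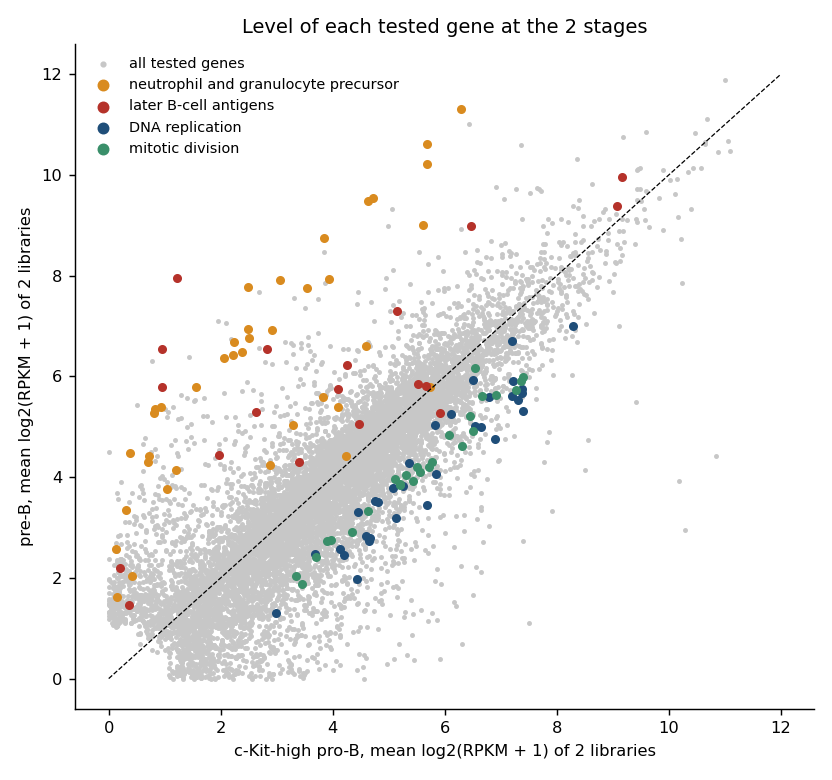
Mean log2(RPKM + 1) of the 2 pre-B libraries (vertical axis) against that of the 2 c-Kit-high pro-B libraries (horizontal axis) for each tested gene, with the diagonal of equal level; grey points are all 10986 genes. Most granulocyte genes and later B-cell antigens lie above the diagonal, and DNA replication and mitotic genes lie below it in a narrow band, with median differences of -1.57 and -1.32.

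The surrogate light chain was nearly lost in pre-B cells. Igll1, its constant-like part, was at 18.5 and 22.6 RPKM in pre-B libraries, against 1584 and 2151 RPKM in c-Kit-high pro-B libraries. Vpreb1, a variable-like part, was at 14.1 and 14.3 RPKM in pre-B libraries, against 1015 and 1334 RPKM in c-Kit-high pro-B libraries, and its close copy Vpreb2 was at 1.07 and 1.2 RPKM in pre-B libraries, against 164 and 197 RPKM in c-Kit-high pro-B libraries. All 3 were high in both c-Kit-high pro-B libraries and low in both pre-B libraries, with differences of -6.43 (SE 0.19, adjusted p = 4.8e-10), -6.26 (SE 0.18, adjusted p = 3.7e-10) and -6.40 (SE 0.19, adjusted p = 3.7e-10). Vpreb3, an endoplasmic reticulum protein related in name and sequence, stayed high in all 4 libraries, at 1935 and 2509 RPKM in pre-B libraries, against 1376 and 1954 RPKM in c-Kit-high pro-B libraries, and did not pass the test (difference 0.43, adjusted p = 0.0922), although it passed under 4 of the alternatives. The signalling chains went the other way. Cd79b was at 1632 and 1815 RPKM in pre-B libraries, against 465 and 726 RPKM in c-Kit-high pro-B libraries, a difference of 1.56 (adjusted p = 2.5e-05). Cd79a was at 1166 and 1397 RPKM in pre-B libraries, against 307 and 348 RPKM in c-Kit-high pro-B libraries, a difference of 1.96 (adjusted p = 8e-07), and here the pro-B mice carry Cre in a Cd79a allele, which cannot be told apart from the stage. In all, 2 of the 6 genes of the receptor were higher and 3 lower.

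Vpreb1 and Vpreb2 are near-identical copies, so the split of reads between them is uncertain. Their upstream sequences show how alike they are. The RefSeq promoter windows (GRCm38.p6, a build other than the mm9 of the deposited values) share a stretch of 106 bases that is 98.1% identical, printed 5′ to 3′ with the 2 differing bases in capitals. The Vpreb1 stretch is chr16:16869256-16869361 on the minus strand and ends at the start site, and the Vpreb2 stretch is chr16:17980315-17980420 on the plus strand and ends 144 bases before it.
Vpreb1: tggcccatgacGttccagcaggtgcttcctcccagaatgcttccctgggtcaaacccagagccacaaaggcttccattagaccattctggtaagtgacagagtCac
Vpreb2: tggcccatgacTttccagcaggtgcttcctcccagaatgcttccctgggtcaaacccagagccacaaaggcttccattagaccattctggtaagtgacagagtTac

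Of 14 recombination and end-joining genes, 4 were higher and 7 lower in pre-B cells, against 20.8% and 31.6% of all tested genes. Dntt, the terminal transferase that adds untemplated bases to heavy-chain joins, was at 7.98 and 5.73 RPKM in pre-B libraries, against 1138 and 1383 RPKM in c-Kit-high pro-B libraries. Polm, a polymerase of the same family that acts at light-chain joins in mice, was at 198 and 211 RPKM in pre-B libraries, against 4.92 and 6.04 RPKM in c-Kit-high pro-B libraries. The groups lay wide apart in opposite directions for these 2 genes, with differences of -7.33 for Dntt (SE 0.52, adjusted p = 5.1e-06) and 4.99 for Polm (SE 0.19, adjusted p = 2.6e-09). Poll, another end-joining polymerase, was lower, at 3.36 and 4.6 RPKM in pre-B libraries, against 21.8 and 22.3 RPKM in c-Kit-high pro-B libraries (-2.22, adjusted p = 1.6e-07). The recombinase itself was abundant at both stages. Rag1 was at 476 and 433 RPKM in pre-B libraries, against 283 and 361 RPKM in c-Kit-high pro-B libraries, with the pre-B libraries higher but no passed test (difference 0.50, adjusted p = 0.446), and it passed only in the fit of these 4 libraries alone (adjusted p = 0.0389). Rag2 was at 25.4 and 20.7 RPKM in pre-B libraries, against 40.4 and 68.9 RPKM in c-Kit-high pro-B libraries, a difference of -1.17 (adjusted p = 0.00508) that was not called without c-Kit-high pro-B library 2 (adjusted p = 0.0637). The total pro-B controls of the series, of the same genotype as the c-Kit-high cells, had 20.2 and 14.8 RPKM of Rag1 and 189.7 and 165 RPKM of Dntt. Artemis (Dclre1c), which opens the hairpin ends, rose by 1.18 (adjusted p = 6.9e-05) and DNA ligase IV (Lig4), which seals the joins, by 0.95 (adjusted p = 0.00401). Nhej1 rose too, by 0.72, while Xrcc5, the larger Ku subunit, was lower (-1.06) and Xrcc6, the smaller one, did not pass (0.44, adjusted p = 0.119), except under median-ratio scaling or without c-Kit-high pro-B library 2 (0.63 and 0.74, adjusted p = 0.0247 and 0.0204). Hmgb1 and Hmgb2, which bend DNA at recombination signals, were lower (-1.03 and -0.72). Hmgb1 was not called without pre-B library 2 (adjusted p = 0.0725), and its level is uncertain because of many near-identical copies. Xrcc4 did not pass (-0.04, adjusted p = 0.914), and Prkdc, called at -0.48, lost its call in 6 alternatives (adjusted p 0.1 to 0.308).

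Signalling proteins downstream of the receptor were higher in 13 of 24 genes and lower in 3, against 20.8% and 31.6% of all tested genes. Their median was 0.59. Rasgrp1, which loads Ras with GTP, was at 42.2 and 41.7 RPKM in pre-B libraries, against 0.727 and 0.169 RPKM in c-Kit-high pro-B libraries. Blk, a Src-family kinase, was at 197 and 211 RPKM in pre-B libraries, against 14.6 and 29.6 RPKM in c-Kit-high pro-B libraries. Syk, the kinase that binds the receptor tails, was at 832 and 868 RPKM in pre-B libraries, against 184 and 214 RPKM in c-Kit-high pro-B libraries. Each was high in both pre-B libraries without overlap, by 4.92, 3.23 and 2.09 (adjusted p = 4.8e-08, 5.9e-06 and 4.4e-08). The adaptor Dok3 rose by 2.12, the kinase Lyn by 2.00 and the phosphatase Ptpn6 by 1.48. Dok3, Lyn, Syk and Ptpn6 are also made by granulocytes, whose listed genes took 2.57% and 2.61% of RPKM in pre-B libraries, against 0.259% and 0.081% in c-Kit-high pro-B libraries, and their part was not tested. Fyn, a further Src-family kinase, was at 15.9 and 15.8 RPKM in pre-B libraries, against 55.1 and 52.8 RPKM in c-Kit-high pro-B libraries, and was lower in both pre-B libraries (-1.71, adjusted p = 1e-06). The inositol phosphatase Inpp5d (-0.85) and the adaptor Blnk (-0.55, or -0.365 under median-ratio scaling) were lower as well. Btk, a kinase, and Plcg2, a phospholipase, did not pass (0.05, adjusted p = 0.862, and 0.11, adjusted p = 0.34), though Plcg2 passed under median-ratio scaling at 0.30 (adjusted p = 0.0211).

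Transcription factors of the B lineage moved in both directions. Of 28 tested genes 16 were higher and 7 lower, against 20.8% and 31.6% of all tested genes. Ikzf1 was at 344 and 309 RPKM in pre-B libraries, against 101 and 124 RPKM in c-Kit-high pro-B libraries, a difference of 1.53 (SE 0.14, adjusted p = 2.5e-06). Both pre-B libraries were higher. The pro-B cells carry a floxed allele, which Cre may have deleted, so the stage and this allele cannot be told apart. Ikzf3, which encodes the related factor Aiolos, was at 240.0 and 219.5 RPKM in pre-B libraries, against 9.98 and 18 RPKM in c-Kit-high pro-B libraries. The labels give no change of its alleles in either group. It was higher by 4.00 (SE 0.92, adjusted p = 0.00752). Klf2, a factor linked to cell quiescence and homing, was at 330.1 and 383 RPKM in pre-B libraries, against 10.8 and 16.4 RPKM in c-Kit-high pro-B libraries, and Spib, an Ets factor, was at 1440.2 and 1635 RPKM in pre-B libraries, against 135 and 196 RPKM in c-Kit-high pro-B libraries. Both were higher in each pre-B library, by 4.64 (adjusted p = 0.00035) and 3.23 (adjusted p = 1.1e-07). Pou2f2 (2.49) and its coactivator Pou2af1 (1.19), Klf13 (1.97), Bach2 (1.72) and Irf4 (1.76), which acts in light-chain recombination, also rose. Spi1 (1.83) and Id2 (1.85) were called higher as well, and both are also expressed in myeloid cells, whose monocyte list was higher in 14 of 15 tested genes, at summed levels of 209 and 231 RPKM in pre-B libraries, against 58.6 and 37.8 RPKM in c-Kit-high pro-B libraries.

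Lef1, a factor of pro-B cells, was at 25.6 and 25.8 RPKM in pre-B libraries, against 451 and 315 RPKM in c-Kit-high pro-B libraries. It had the largest drop of the list, and the 2 groups were far apart (-3.82, SE 0.24, adjusted p = 2.2e-07). Mef2c (-1.30), Bcl11a (-1.02), Ebf1 (-0.77), Tcf4 (-0.73) and Runx1 (-0.67) were lower by smaller amounts. Id3 was called lower at -1.02, but not under median-ratio scaling or when any single library was left out (adjusted p 0.0678 to 0.137). Factors that hold B-cell identity moved in both directions, with Ebf1 lower and Pax5 and Tcf3 higher. Pax5 was at 331 and 308 RPKM in pre-B libraries, against 219 and 214 RPKM in c-Kit-high pro-B libraries, higher by 0.56 (adjusted p = 0.00747) but not called without pre-B library 1 (adjusted p = 0.0504). Tcf3 (0.45, or 0.25 under quantile normalization), Tcf12 (0.62), Mef2d (0.44) and Irf8 (0.71) were higher by similar amounts; Tcf12, Mef2d and Irf8 were not called in the fit of all 30 libraries (adjusted p = 0.183, 0.0728 and 0.0566). Foxo1, which drives Rag expression, was at 117 and 114 RPKM in pre-B libraries, against 103 and 105 RPKM in c-Kit-high pro-B libraries, and did not pass (0.15, adjusted p = 0.43), nor did 4 further genes of the list.

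Antigens of later B cells were higher in 15 of 19 tested genes and lower in 1, against 20.8% and 31.6% of all tested genes. Their median was 1.97. Ms4a1, which encodes CD20, was at 61.9 and 47.2 RPKM in pre-B libraries, against 1.63 and 0.419 RPKM in c-Kit-high pro-B libraries. Cd38, an ectoenzyme, was at 102 and 84.1 RPKM in pre-B libraries, against 5.66 and 6.62 RPKM in c-Kit-high pro-B libraries. Cd72, an inhibitory co-receptor, was at 510.0 and 495 RPKM in pre-B libraries, against 72.7 and 104 RPKM in c-Kit-high pro-B libraries. All 3 were higher in both pre-B libraries, by 4.83, 3.71 and 2.52 (adjusted p = 6.6e-07, 2.3e-07 and 3e-06). The inhibitory Fc receptor Fcgr2b (2.65), the costimulatory receptor Cd40 (2.48), the BAFF receptor Tnfrsf13c (2.15) and Cd22 (1.97) rose likewise. Fcgr2b is also expressed by myeloid cells, and the granulocyte values given above moved with it. Slamf6 was the gene called lower (-0.63, adjusted p = 0.0146), and it lost that call under 3 alternatives (adjusted p 0.0612 to 0.145). The other 3 tested genes did not pass. The deeper c-Kit-high pro-B library 1 was higher than library 2 in 4 of the 19 genes, against 47.1% of all tested genes.

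Antigen presentation by MHC class II was higher in 8 of 11 genes and lower in none, against 20.8% and 31.6% of all tested genes. Monocytes and plasmacytoid dendritic cells also express class II genes. In the same libraries monocyte and macrophage genes were higher in 14 of 15, at the summed levels given above. NK-cell and plasmacytoid dendritic cell genes were higher in 5 of 7, among them Irf8, which the list of B-lineage transcription factors also holds. Csf1r, a receptor of monocytes and macrophages, was at 10.7 and 12.8 RPKM in pre-B libraries, against 1.37 and 0.333 RPKM in c-Kit-high pro-B libraries. Siglech, a surface protein of plasmacytoid dendritic cells, was at 3.07 and 2.95 RPKM in pre-B libraries, against 0.04 and 0.18 RPKM in c-Kit-high pro-B libraries. Their part in the class II result was not tested. Cd74, the invariant chain, was at 476 and 536 RPKM in pre-B libraries, against 39.2 and 23.7 RPKM in c-Kit-high pro-B libraries. H2-Aa, a class II alpha chain, was at 68.3 and 86.1 RPKM in pre-B libraries, against 8.4 and 7.65 RPKM in c-Kit-high pro-B libraries. Ciita, the coactivator that class II transcription needs, was at 6.32 and 8.02 RPKM in pre-B libraries, against 0.725 and 0.836 RPKM in c-Kit-high pro-B libraries. The pre-B libraries were the higher ones in each case, by 4.01, 3.11 and 2.19 (adjusted p = 9.1e-07, 9.7e-07 and 2.2e-06). The beta chain H2-Eb1 rose by 2.72, whereas H2-Ab1, the partner of H2-Aa, was at 87.1 and 119 RPKM in pre-B libraries, against 54.2 and 80.8 RPKM in c-Kit-high pro-B libraries and did not pass (0.62, adjusted p = 0.132). The peptide-loading genes H2-DMb1 (1.08) and H2-DMb2 (2.58) were higher, while H2-Oa and H2-Ob, which restrain peptide loading, did not pass (-0.04 and -0.08, adjusted p = 0.924 and 0.79). Class II promoters carry a conserved module that ends in an inverted CCAAT letter group, the Y box. Within 250 bases before the RefSeq start, CCAAT on either strand was found in 7 of the 8 genes with a listed start (87.5%), against 37.5% of 27025 genes. Cd74 had the largest difference of the list, but it was set aside here and no stretch of it is shown. Among the other called genes, H2-Aa and H2-Eb1 are those with the largest differences that hold the letters. The H2-Aa stretch (chr17:34287837-34287901, minus strand) and the H2-Eb1 stretch (chr17:34305778-34305866, plus strand) are shown 5′ to 3′ in the direction of the gene. CCAAT or its reverse complement ATTGG is in capitals.
H2-Aa: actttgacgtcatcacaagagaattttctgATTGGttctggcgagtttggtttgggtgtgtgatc
H2-Eb1: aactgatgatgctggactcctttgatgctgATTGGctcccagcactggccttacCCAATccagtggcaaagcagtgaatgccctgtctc

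Genes of earlier progenitors were lower in 9 of 17 tested genes and higher in 2, against 31.6% and 20.8% of all tested genes. Erg, an Ets factor of stem and progenitor cells, was at 8.41 and 9.82 RPKM in pre-B libraries, against 232 and 251 RPKM in c-Kit-high pro-B libraries. Both pre-B libraries were low (-4.59, SE 0.25, adjusted p = 8.2e-08). Spn, which encodes CD43, the antigen that marks pro-B cells, was at 52.6 and 56 RPKM in pre-B libraries, against 162 and 167 RPKM in c-Kit-high pro-B libraries (-1.58, adjusted p = 3.4e-07). Lmo2 (-1.18), Hhex (-0.89) and Lyl1 (-0.83) were lower by about as much or less, and Ly6a, Meis1 and Flt3 were called lower (-2.24, -1.13 and -0.72). These 3 lost the call when c-Kit-high pro-B library 1 was left out (adjusted p = 0.0839, 0.0528 and 0.372), and each did so under at least 1 further alternative. Without that library their differences were -1.85, -0.97 and -0.23, and that of Flt3 was -1.20 without c-Kit-high pro-B library 2. The 2 higher genes, Gata2 (1.57) and Gfi1b (1.43), act in erythroid, megakaryocyte and mast cells, and erythroid genes were higher in the same libraries. The higher count was 1 without c-Kit-high pro-B library 2 or pre-B library 2. Gfi1b lost its call without either c-Kit-high pro-B library or without pre-B library 2 (adjusted p 0.0663 to 0.107).

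The interleukin-7 receptor chain Il7r did not pass the test, whereas several genes known to respond to its signals did. Il7r was at 99 and 78.3 RPKM in pre-B libraries, against 71.2 and 97.2 RPKM in c-Kit-high pro-B libraries (0.08, adjusted p = 0.858). Myc, the growth-promoting factor, was at 9.64 and 9.62 RPKM in pre-B libraries, against 115 and 85.9 RPKM in c-Kit-high pro-B libraries. Ccnd2, a cyclin that STAT5 induces, was at 8.64 and 8.39 RPKM in pre-B libraries, against 98.8 and 65.4 RPKM in c-Kit-high pro-B libraries. The STAT5 feedback inhibitors Socs2 and Cish were lower too, and for all 4 of Myc, Ccnd2, Socs2 and Cish the groups did not overlap (-3.24, -3.10, -2.70 and -2.36; adjusted p = 2.7e-08, 4.7e-08, 7.2e-08 and 2.8e-06). In the total pro-B controls Myc stood at 259.7 and 273 RPKM and Ccnd2 at 129.7 and 137 RPKM. The kinase Jak3, which sits on the common gamma chain, was lower (-2.29), while the chain Il2rg itself was higher by 0.40, a call lost under 3 alternatives (adjusted p 0.0686 to 0.139). In the same list the inhibitor Socs1 was at 90.5 and 112 RPKM in pre-B libraries, against 10.8 and 6.73 RPKM in c-Kit-high pro-B libraries and the survival kinase Pim2 at 95.8 and 107 RPKM in pre-B libraries, against 8.56 and 7.18 RPKM in c-Kit-high pro-B libraries, both higher in each pre-B library (3.41 and 3.53, adjusted p = 4.4e-07 and 2.6e-09). The list as a whole had no shared direction, with 6 of 19 higher and 9 lower, against 20.8% and 31.6% of all tested genes. Its median was -0.06 and turned to 0.13 under median-ratio scaling.

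**Figure D3:**
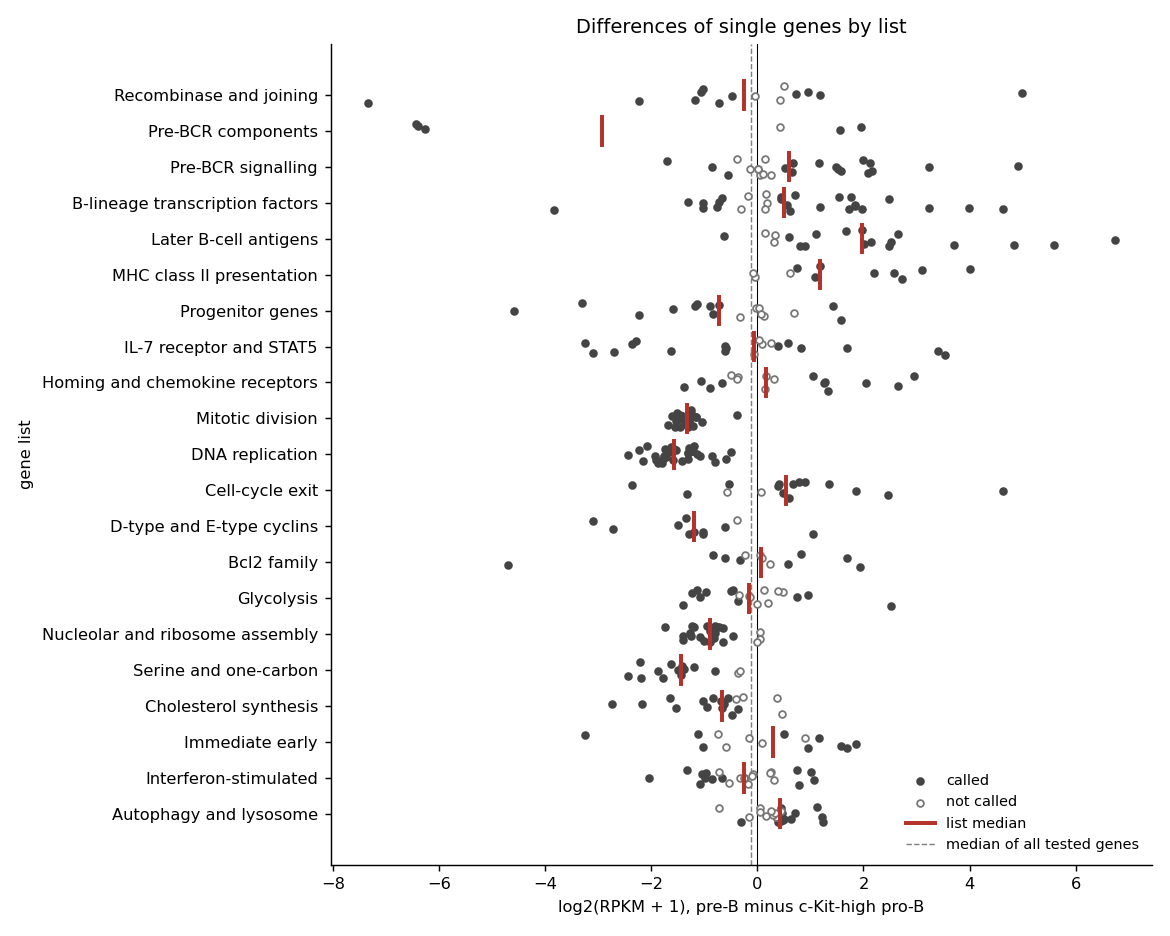
Difference of each tested gene in 21 gene lists, as log2(RPKM + 1) in pre-B minus c-Kit-high pro-B libraries, with filled points for genes called at an adjusted p under 0.05, open points for the others and a bar at the list's median. The dashed line is the median of all 10986 genes, -0.11. All mitotic and replication genes lie below 0, while most later B-cell antigens and MHC class II genes lie above it.

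Division genes were lower in pre-B cells without exception among those listed. All 32 DNA replication genes and all 26 mitotic genes were called lower, against 31.6% of all tested genes, with medians of -1.57 and -1.32. Mcm6, a subunit of the replicative helicase, was at 39.9 and 37.8 RPKM in pre-B libraries, against 161 and 172 RPKM in c-Kit-high pro-B libraries. Tyms, which makes thymidylate, was at 2.62 and 3.31 RPKM in pre-B libraries, against 21.8 and 19.3 RPKM in c-Kit-high pro-B libraries. Bub1b, a spindle checkpoint kinase, was at 23.5 and 23.9 RPKM in pre-B libraries, against 83.6 and 72.5 RPKM in c-Kit-high pro-B libraries. The c-Kit-high pro-B libraries were the higher ones for each gene, with differences of -2.07, -2.44 and -1.67 (SE 0.13, 0.13 and 0.12; adjusted p = 1.2e-07, 2.3e-08 and 3.5e-07). The smallest drop among the replication genes was -0.49 (Pold1) and among the mitotic genes -0.37 (Cenpa). Under median-ratio scaling 31 and 25 of the 2 lists remained called lower, and Pold1 was not (adjusted p = 0.0543). Cenpa lost its call under 5 alternatives (adjusted p 0.0569 to 0.2), and Mki67, lower at -1.54, did so without c-Kit-high pro-B library 1 or pre-B library 2 (adjusted p = 0.0547 and 0.051). RNA of these genes was still present in the pre-B libraries, with Mki67 at 58.8 and 45.9 RPKM, against 172 and 136 RPKM in c-Kit-high pro-B libraries. Granulocyte and erythroid genes were higher in the same pre-B libraries, and which cells this division RNA came from was not tested.

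Of the cyclins, kinases and E2F factors that start the cell cycle, 9 of 11 were lower and 1 was higher. The shares over all tested genes were 31.6% and 20.8%. Cdk6 was at 9.67 and 7.41 RPKM in pre-B libraries, against 83.5 and 45.2 RPKM in c-Kit-high pro-B libraries (-2.72, adjusted p = 6.1e-05), while Ccne1 (-1.50), Cdk4 (-1.19) and E2f1 (-1.03) were lower by smaller amounts. Ccnd3, the D-type cyclin that large pre-B cells need, kept a high level at 282 and 329.6 RPKM in pre-B libraries, against 511 and 424 RPKM in c-Kit-high pro-B libraries. It was lower (-0.61, adjusted p = 0.00657), and the call was lost under median-ratio scaling or without c-Kit-high pro-B library 1 or pre-B library 1 (adjusted p 0.0566 to 0.0614). E2f2 was the exception, at 261 and 275 RPKM in pre-B libraries, against 128 and 132 RPKM in c-Kit-high pro-B libraries, and was higher in both pre-B libraries by 1.04 (adjusted p = 2e-06). Genes linked to leaving the cell cycle were higher in 11 of 16 and lower in 3, against 20.8% and 31.6% of all tested genes. The antiproliferative factor Btg1 was at 232 and 223 RPKM in pre-B libraries, against 38.5 and 42.6 RPKM in c-Kit-high pro-B libraries (2.46, adjusted p = 3.5e-08), and Btg2 at 394 and 426 RPKM in pre-B libraries, against 98.3 and 128 RPKM in c-Kit-high pro-B libraries (1.86, adjusted p = 3.4e-05). Cdkn1a, which encodes the inhibitor p21, was lower, at 6.49 and 9.35 RPKM in pre-B libraries, against 40.4 and 49 RPKM in c-Kit-high pro-B libraries (-2.37, adjusted p = 0.00034). The count of higher genes in that list was 7 without c-Kit-high pro-B library 1 and 6 without pre-B library 1.

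Promoters of replication genes are known targets of E2F factors. The letters TTTCCCGC, TTTGGCGC, TTTCGCGC or TTTGCCGC, on either strand within 250 bases before the RefSeq start, were found in 7 of the 25 replication genes with a listed start (28%), against 2.16% of 27025 genes. CCAAT was found in 19 of 22 mitotic genes with a start (86.4%), against 37.5% of all genes. In the other lists searched, E2F letters were in 16.7% of nucleolar, 9.09% of mitotic and 5.26% of receptor-signalling genes. They were in 0% of class II, serine and one-carbon, and later B-cell antigen genes. CCAAT was in 80% of serine and one-carbon, 60% of replication, 36.8% of receptor-signalling, 27.8% of nucleolar and 23.1% of later-antigen genes. The letters overlap one another in palindromic sites, and a match is no measurement of binding. The replication genes with the largest drops that hold the letters, and the mitotic gene with the largest drop that holds CCAAT, are printed 5′ to 3′. The Mcm6 stretch (chr1:128359715-128359845, minus strand, 3 matches, of which 2 overlap) and the Mcm5 stretch (chr8:75109326-75109397, plus strand, 2 overlapping matches) are shown with E2F letters in capitals, and the Bub1b stretch (chr2:118598068-118598132, plus strand) with ATTGG, the reverse complement of CCAAT, in capitals.
Mcm6: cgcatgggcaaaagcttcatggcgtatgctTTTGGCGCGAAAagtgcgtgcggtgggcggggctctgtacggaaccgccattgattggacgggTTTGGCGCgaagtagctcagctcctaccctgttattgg
Mcm5: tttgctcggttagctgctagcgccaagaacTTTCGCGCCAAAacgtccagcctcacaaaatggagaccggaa
Bub1b: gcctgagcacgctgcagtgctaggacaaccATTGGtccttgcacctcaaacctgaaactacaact
Mcm5, like Mcm6 a helicase subunit, was at 39.3 and 52.5 RPKM in pre-B libraries, against 158 and 157 RPKM in c-Kit-high pro-B libraries (-1.77, adjusted p = 5.3e-07).

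Biosynthetic genes were lower along with division genes, and the background for their counts is 31.6% lower and 20.8% higher of all tested genes. Serine and one-carbon genes, which feed nucleotide synthesis, were lower in 13 of 15 and higher in none, with a median of -1.44. Shmt1, which moves carbon units from serine to folate, was at 3.89 and 4.75 RPKM in pre-B libraries, against 30 and 18.1 RPKM in c-Kit-high pro-B libraries (-2.20, adjusted p = 6.2e-05). Paics and Atic, enzymes of purine synthesis, were lower too (-1.88 and -1.78). Nucleolar and ribosome-assembly genes were lower in 20 of 23, with a median of -0.89. Ncl, which encodes nucleolin, was at 55.3 and 39.9 RPKM in pre-B libraries, against 114 and 114 RPKM in c-Kit-high pro-B libraries (-1.26, adjusted p = 0.00039). The share of RPKM from genes of ribosomal proteins was 3.99% and 4.45% in pre-B libraries, against 5.21% and 5.94% in c-Kit-high pro-B libraries. Cholesterol synthesis was lower in 13 of 17 genes and higher in none, although 2 were higher under either rescaling or without c-Kit-high pro-B library 1. Sqle, which oxidises squalene, was at 2.64 and 2.63 RPKM in pre-B libraries, against 16 and 14.9 RPKM in c-Kit-high pro-B libraries (-2.17, adjusted p = 3.9e-08). Total pro-B controls were higher still, with 98.4 and 85.5 RPKM of Sqle.

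Glycolysis did not move as a block. Of 19 tested genes 8 were lower and 3 higher, against 31.6% and 20.8% of all tested genes. Ldha, lactate dehydrogenase A, was at 65.9 and 71.9 RPKM in pre-B libraries, against 151 and 176 RPKM in c-Kit-high pro-B libraries (-1.23, adjusted p = 5.7e-06), and the phosphofructokinase Pfkm was lower as well (-1.40). Aldoa was higher by 0.75, as was the lactate exporter Slc16a3, by 2.52. The counts were 5 higher and 5 lower under median-ratio scaling and also without c-Kit-high pro-B library 1. Gapdh was listed at 1.23 and 1.09 RPKM in pre-B libraries, against 1.41 and 0 RPKM in c-Kit-high pro-B libraries; it has many processed copies in the genome, and its level here is uncertain.

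Genes of survival were split. Of 12 tested Bcl2-family genes 4 were higher and 4 lower, against 20.8% and 31.6% of all tested genes. The lower count was 2 without c-Kit-high pro-B library 1, under median-ratio scaling and in the fits of 4 and of 30 libraries, and 1 without pre-B library 1. Bok, a pro-apoptotic member, was at 0.285 and 0.344 RPKM in pre-B libraries, against 33 and 33.1 RPKM in c-Kit-high pro-B libraries, so the c-Kit-high pro-B libraries were the only high ones of the 4 (-4.70, SE 0.15, adjusted p = 5.2e-10). Bcl2l1, which encodes the survival protein Bcl-xL, was at 209 and 219.8 RPKM in pre-B libraries, against 66 and 65.8 RPKM in c-Kit-high pro-B libraries (1.69, adjusted p = 2.5e-05). Bmf, a death-promoting member, rose by 1.94, and Mcl1 by 0.58. Bcl2 itself was low throughout, at 1.02 and 1.24 RPKM in pre-B libraries, against 2.69 and 1.84 RPKM in c-Kit-high pro-B libraries, and its call (-0.60) was lost under 6 alternatives (adjusted p 0.0532 to 0.149).

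Homing genes were higher in 7 of 17 tested and lower in 4, against 20.8% and 31.6% of all tested genes. Ccr7, the chemokine receptor that leads lymphocytes to lymph nodes, was at 62.2 and 79.9 RPKM in pre-B libraries, against 9.18 and 11.6 RPKM in c-Kit-high pro-B libraries (2.66, adjusted p = 4.1e-07). Cxcr4, which holds B-cell precursors in the marrow, was at 593 and 519 RPKM in pre-B libraries, against 232 and 226 RPKM in c-Kit-high pro-B libraries (1.27, adjusted p = 2.3e-05), and S1pr1, which directs exit, rose by 1.32. Among integrins the beta chains Itgb7 (2.96) and Itgb2 (2.06) were higher and Itgb1 (-1.38) and the alpha chain Itga4 (-0.90) lower. Itgb2 is abundant on granulocytes, whose listed genes moved with it. The call of Itga4 was lost in the fit of all 30 libraries (adjusted p = 0.053).

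Autophagy and lysosome genes were higher in 11 of 22 and lower in 1, with a median of 0.42, led by the regulator Tfeb at 72.2 and 80.2 RPKM in pre-B libraries, against 32.4 and 30.9 RPKM in c-Kit-high pro-B libraries (1.24, adjusted p = 7.6e-06) and the protease Ctsz (1.23). Myeloid cells express both, and the monocyte values above moved with them. The higher count was 7 without c-Kit-high pro-B library 1 or without pre-B library 1, and the lower count was 0 when any single library was left out. Immediate early genes were higher in 6 of 14 and lower in 3, against 20.8% and 31.6% of all tested genes. Zfp36 (1.70) and Jund (1.58) were up and Ier2 (-1.03) was down. Interferon-stimulated genes were higher in 4 of 23 and lower in 8, near the shares of 20.8% and 31.6% over all tested genes. The antiviral Ifit2 had the largest difference (-2.04, adjusted p = 4.7e-06), while the sensor gene Ddx58 was higher by 1.07. The counts were 5 higher and 4 lower without c-Kit-high pro-B library 1, 2 higher and 11 lower without c-Kit-high pro-B library 2, and 4 higher and 5 lower without pre-B library 1.

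Outside the lists, the genes with the largest differences at 5 RPKM or more in the higher group were taken, 20 in each direction. On the higher side, Col5a3, a fibrillar collagen chain, was at 77.2 and 78.3 RPKM in pre-B libraries, against 0.583 and 0.843 RPKM in c-Kit-high pro-B libraries, and the metalloprotease Adam19 at 135 and 137 RPKM in pre-B libraries, against 2.06 and 3.91 RPKM in c-Kit-high pro-B libraries. Both were low in each c-Kit-high pro-B library (5.53 and 5.14, adjusted p = 7.7e-09 and 4e-08). B-cell genes among the 20 were Fcmr, the IgM Fc receptor, at 103 and 108 RPKM in pre-B libraries, against 3.33 and 3.75 RPKM in c-Kit-high pro-B libraries (4.55), and Fcrla, an intracellular Fc receptor-like protein, at 599 and 676 RPKM in pre-B libraries, against 22.3 and 46.2 RPKM in c-Kit-high pro-B libraries (4.26). Ly6d, a surface antigen of B-lineage cells, was at 1838 and 2326 RPKM in pre-B libraries, against 73.4 and 98.5 RPKM in c-Kit-high pro-B libraries (4.59, adjusted p = 0.00183). Others are known from myeloid cells or basophils. They include the oxidase subunit Cybb, the chemokine Ccl6 and the basophil protease Prss34 (differences 4.00, 4.04 and 4.23). Cybb stood at 55 and 37.4 RPKM in pre-B libraries, against 3.39 and 0.907 RPKM in c-Kit-high pro-B libraries, and it was higher in c-Kit-high pro-B library 1 than in library 2.

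On the lower side, Emp1, an epithelial membrane protein, was at 0.717 and 0.511 RPKM in pre-B libraries, against 75.2 and 80.4 RPKM in c-Kit-high pro-B libraries. Gfra2, a receptor for the growth factor neurturin, was at 5.68 and 5.59 RPKM in pre-B libraries, against 177 and 159 RPKM in c-Kit-high pro-B libraries. Impdh1, which makes guanine nucleotides, was at 16.3 and 16.9 RPKM in pre-B libraries, against 336 and 386 RPKM in c-Kit-high pro-B libraries. The pre-B libraries were the low ones in each case, with differences of -5.61, -4.67 and -4.36 (adjusted p = 7.5e-07, 4e-09 and 3.2e-09). Several genes known from endothelial and stem cells were among the 20, with Egfl7 at -4.70, Mmrn1 at -4.69, Eng at -4.52 and Robo4 at -4.26. Eng, which encodes endoglin, was at 3.07 and 3.65 RPKM in pre-B libraries, against 89.3 and 109 RPKM in c-Kit-high pro-B libraries. Of the listed endothelial and stromal genes 3 of 7 tested were higher, among them Pecam1, and 1 was lower. The lower gene, Kdr, was at 0.104 and 0.156 RPKM in pre-B libraries, against 2.63 and 3 RPKM in c-Kit-high pro-B libraries. Cdh5 went the other way, at 2.33 and 1.93 RPKM in pre-B libraries, against 0.239 and 0.433 RPKM in c-Kit-high pro-B libraries. What endothelial cells add to these values was not tested. The call of Cdh5 (1.23) was lost without c-Kit-high pro-B library 1 or pre-B library 1, at differences of 1.12 and 1.13. Without either of these libraries the higher count of that list was 1.

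**Figure D4:**
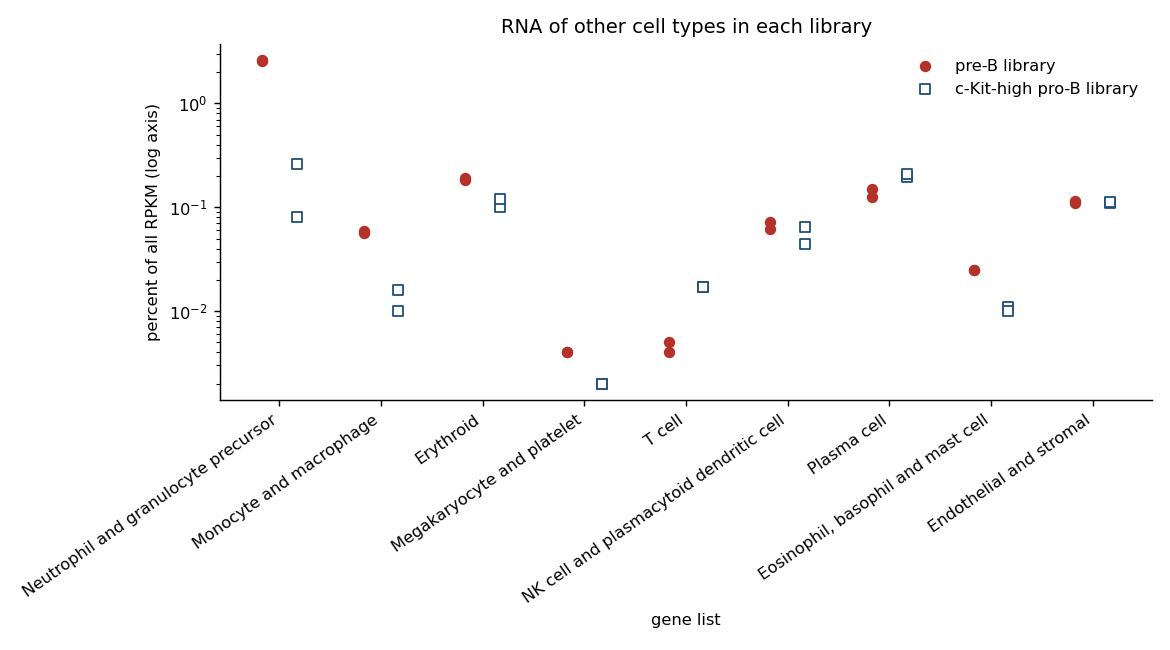
Percent of all RPKM taken by the genes of 9 lists of other cell types, on a log axis, in each pre-B library (filled circles, left of each pair) and each c-Kit-high pro-B library (open squares, right). The neutrophil list stands at 2.57% and 2.61% in pre-B libraries, against 0.259% and 0.081% in c-Kit-high pro-B libraries, and the highest value of any other list is 0.21%, for plasma-cell genes in c-Kit-high pro-B library 2.

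The 2 c-Kit-high pro-B libraries differed in the RNA of other cells. Of the 38 tested granulocyte genes, 33 were higher in library 1 than in library 2, against 47.1% of all tested genes. Monocyte and macrophage genes were higher in library 1 in 12 of 15. Of the rarer types, basophil and eosinophil genes were higher in pre-B cells in 5 of 6 tested, with the basophil protease Mcpt8 at 18.5 and 25 RPKM in pre-B libraries, against 0.902 and 0.512 RPKM in c-Kit-high pro-B libraries. T-cell genes moved both ways, 4 of 8 higher and 4 lower. Cd3d, Cd3g, Cd4 and Cd8b1 were at 2 RPKM or less in every library, while Lat, a signalling adaptor of T cells that pro-B cells also make, was at 1.87 and 3.16 RPKM in pre-B libraries, against 34.7 and 35.4 RPKM in c-Kit-high pro-B libraries (-3.38, adjusted p = 8.5e-05). NK-cell and plasmacytoid dendritic cell genes were higher in 5 of 7 and lower in 1, and the 5 include Irf8, also listed as a B-lineage factor. Plasma-cell genes were higher in 4 of 10 and lower in 5, and megakaryocyte genes higher in 2 of 6. Over all tested genes the shares were 20.8% higher and 31.6% lower. Without c-Kit-high pro-B library 2 or without pre-B library 2 the NK-cell and plasmacytoid dendritic cell counts were 3 higher and 2 lower. The lower count of plasma-cell genes was 3 without c-Kit-high pro-B library 2, and the higher count of megakaryocyte genes was 1 without pre-B library 2 and 4 under either rescaling.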

How the data were processed

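Strand-specific single-end libraries were made from polyadenylated RNA, per the labels' protocols. The submitters' processing notes list TopHat 1.4.1, HTSeq 0.5.3, DESeq 1.8.3 and the build mm9, without their settings. The authors deposited 1 table of RPKM values for each library, and no raw counts were used here. Accessions tied 20662 of the 21025 gene models to a symbol in use today, and 74 have a symbol in common with another model.

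Genes that reached 1 RPKM in 2 or more of the 4 libraries entered limma 3.58.1 (R 4.3.3) on log2(RPKM + 1), which understates differences of low genes. The fit held 14 pro-B and pre-B libraries in 7 groups (7 residual degrees of freedom), with intensity trend and robust moderation, and was tested on simulated data. Tests were two-sided, and adjusted p values are Benjamini-Hochberg over all tested genes. No label names separate animals for the replicates, so the p values speak of the spread among these libraries, which may be technical. The members and the 30 gene lists were chosen with earlier results of these data known. The naming rule takes Ikzf1, Cd79a, every tested gene of 4 lists, up to 6 called members of each other list with the largest difference, genes that did not pass where a group is described, and outside the lists 20 called genes a direction whose higher group averaged 5 RPKM or more with no overlap. Some of these are named, and 3 are not reported here. Promoter windows are RefSeq's (GRCm38.p6).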

Additional observations from a re-analysis of the deposited data

How the results depend on the processing

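Under 14 alternatives the number of called genes ranged from 4732 to 6110, against 5762 as reported, and the higher and lower counts stayed within 1.5 times of theirs. Leaving out a single library gave 4732 to 5206 called genes, 1857 to 2043 higher and 2875 to 3187 lower. Of 822 list counts under the alternatives, 780 stayed within 1.5 times of the reported count and 42 did not. Of 2380 differences recomputed for the 172 named genes, 2295 kept their direction and call, 61 lost the call, 9 gained one and 15 changed sign, none of them called. H2-Oa turned to 0.138 under median-ratio scaling and 0.091 under quantile normalization, H2-Ob to 0.105 under median-ratio scaling, and Xrcc4 to 0.103 and 0.208 under those 2 settings. With a library left out, differences ran from -0.234 to 0.33 for Btk, -0.158 to 1.11 for Gapdh, -0.335 to 0.25 for H2-Oa, -0.473 to 0.31 for H2-Ob, -0.14 to 0.302 for Il7r and -0.435 to 0.357 for Xrcc4. The cause was not tested. A pseudocount of 0.1 raised the size of differences of low genes, such as Cd8b1 (3.76 against 1.17) and Kdr (-3.67 against -1.75). The alternative without listed genes of other cell types was chosen after seeing the data. No paired analysis was possible because the libraries carry separate numbers that pair none of them across the groups. Depth limits low genes most in c-Kit-high pro-B library 2.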
